A study of Mus musculus with 9 samples.

Results

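The genes described here are 79 transcription factor genes of the homeobox, SOX and forkhead families, read out in mouse embryos at the morula stage after knockdown of histone deacetylases or of their scaffold Sin3a. They were chosen by name and level: symbols of the Hox, Dlx, Lhx, Six4, Pax, Irx, Msx, Nkx, Shox, Sox and Fox families, leaving out Sox2, Sox7 and Sox17, with a normalised count of 10 or more in 3 or more of the 9 libraries. That took 79 of the 142 family genes in the table, which holds 20087 named genes in all. They comprise 31 Fox genes, 14 Hox genes, 11 Sox genes, 6 genes of the Six4 family, 5 Nkx genes, 3 Pax genes, 2 each of Dlx, Irx, Lhx and Msx, and Shox2. The name rule also takes Foxred1 and Foxred2, which encode oxidoreductases and no forkhead domain, so that 77 of the 79 are family members by function.

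Homeobox, SOX and forkhead proteins each bind DNA through a family domain: the homeodomain, the HMG box and the winged helix. Hox proteins set position along the body axis, and the Pax, Six4, Irx, Nkx, Lhx and Shox proteins pattern organs such as eye, brain, gut and limb. These genes mostly act after implantation, and many lie in CpG-rich, Polycomb-covered chromatin that is silent in pluripotent cells. Histone deacetylases 1 and 2 remove acetyl groups from histone tails as the catalytic subunits of several corepressor complexes, of which the Sin3 complex, built on Sin3a, is one. Some family members are by contrast part of the early embryo's own program, among them Sox21 and the FOXO factors that respond to insulin signalling.

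The embryos were of the B6D2F1 background. Small interfering RNA (siRNA) was injected into them at the zygote stage, which lowers the messenger RNA it matches. The first group received siRNA against Hdac1 and Hdac2 together (labelled Hdac1/2 cKD), another siRNA against Sin3a (Sin3a KD), and the control group a nonspecific siRNA (NC). All were collected at E2.75, and each of the 3 libraries per group is a pool of 60 embryos, so that differences between single embryos or cells cannot be seen. RFP and GFP RNA was added to every pool before extraction and was not used here. The labels do not say whether the libraries of a group are separate collections, and the p-values therefore speak only of the spread among these libraries, which may be technical. The study's title names the shared roles of the deacetylases in lineage development and DNA methylation as its subject.

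The promoters of 5 genes that rose in a knockdown are shown, since the results below turn on them, from 250 bases before to 50 bases after the RefSeq start, on the strand of the gene, with every CpG in capitals. They lie on GRCm38 at chr3:66981722-66982021 (reverse strand, Shox2), chr12:27342669-27342968 (reverse, Sox11), chr2:74679308-74679607 (forward, Hoxd11), chr13:98353995-98354294 (forward, Foxd1) and chr7:139582748-139583047 (reverse, Nkx6-2).
Shox2: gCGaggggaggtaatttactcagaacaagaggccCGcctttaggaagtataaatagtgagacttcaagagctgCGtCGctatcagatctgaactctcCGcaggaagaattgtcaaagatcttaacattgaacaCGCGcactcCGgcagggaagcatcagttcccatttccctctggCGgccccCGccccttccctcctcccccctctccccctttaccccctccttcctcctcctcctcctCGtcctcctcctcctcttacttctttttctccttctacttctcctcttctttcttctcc
Sox11: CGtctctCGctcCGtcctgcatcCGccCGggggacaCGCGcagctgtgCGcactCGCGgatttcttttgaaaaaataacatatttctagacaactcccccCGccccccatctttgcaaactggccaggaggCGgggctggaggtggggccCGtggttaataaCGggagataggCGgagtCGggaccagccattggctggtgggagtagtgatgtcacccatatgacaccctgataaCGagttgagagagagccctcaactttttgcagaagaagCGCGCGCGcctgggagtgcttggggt
Hoxd11: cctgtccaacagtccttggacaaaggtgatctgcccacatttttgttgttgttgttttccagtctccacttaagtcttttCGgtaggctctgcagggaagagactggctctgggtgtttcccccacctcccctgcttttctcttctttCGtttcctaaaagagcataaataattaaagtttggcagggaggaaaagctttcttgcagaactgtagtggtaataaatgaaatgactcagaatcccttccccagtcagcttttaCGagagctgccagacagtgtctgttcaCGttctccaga
Foxd1: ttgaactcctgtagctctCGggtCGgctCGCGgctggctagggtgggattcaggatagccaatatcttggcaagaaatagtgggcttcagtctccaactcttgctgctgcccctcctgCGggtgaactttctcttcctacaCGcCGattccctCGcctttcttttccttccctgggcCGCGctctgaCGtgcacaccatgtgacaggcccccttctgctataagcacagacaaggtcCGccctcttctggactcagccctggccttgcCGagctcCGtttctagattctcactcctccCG
Nkx6-2: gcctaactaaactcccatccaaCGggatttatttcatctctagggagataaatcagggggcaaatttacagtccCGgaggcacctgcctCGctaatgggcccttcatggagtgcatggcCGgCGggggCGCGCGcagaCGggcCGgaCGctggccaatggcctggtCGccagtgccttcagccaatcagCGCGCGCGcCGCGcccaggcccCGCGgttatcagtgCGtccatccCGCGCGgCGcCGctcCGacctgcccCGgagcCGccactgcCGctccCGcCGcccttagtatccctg
These windows hold 11 CpG in Shox2, 21 in Sox11, 4 in Hoxd11, 15 in Foxd1 and 32 in Nkx6-2. Of the 79 genes, 55 matched a RefSeq promoter, and 37 of those (67.3%) were CpG-rich, with an observed over expected CpG ratio above 0.6 and a GC content above 50%, against 68.3% of the 9721 matched genes among all tested and 53.3% of the 45 matched family genes below the level threshold. The TATA box letters TATAAA, sought on both strands, occur in the Shox2 window and in 3.64% of the 55 promoters, against 6.78% of tested genes. The SOX core letters ACAAAG and the homeodomain core letters TAATTA, which do not overlap each other as motifs, both occur in the Hoxd11 window. ACAAAG occurs in 11 (20%) of the 55 promoters and 13.5% of tested genes, and TAATTA in 3.64% and 2.47%. The windows of Foxd1, Nkx6-2 and Sox11 hold the CCAAT letters and the GC box letters GGGCGG. The CCAAT letters were found in 47.3% of the 55 promoters and 38.9% of tested genes, GGGCGG in 63.6% and 64.2%. Such matches describe the letters in these windows and show no binding.

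Library totals were 11.9 M to 13.5 M normalised counts, from depths estimated at 8.38 M reads (NC replicate 3) to 17.0 M (NC replicate 1). NC replicate 3 also had the highest share of genes at 0, 28.4% against 13.2% to 23.4% in the other libraries, and stood apart on the first principal component of all tested genes (-96.6, against -16.8 and -20.7 in the other NC libraries). Where leaving it out ends the call of a named gene, the adjusted p is given, alone or within a range over several fits. Fold changes without it are given only where it moves a called value by over 1.5 times. The targeted genes followed the labels: Hdac1 was at 16.9% and Hdac2 at 13.3% of its NC mean in Hdac1/2 cKD embryos, and Sin3a at 29.0% of its NC mean in Sin3a KD embryos. Hdac1 was also called lower in Sin3a KD embryos, at 34.3% of its NC mean (log2 fold change -1.59, SE 0.21, adjusted p = 0.00297, 0.0523 with variances moderated without trend and robust), while Hdac2 stood at 90.1% and was not called (adjusted p = 0.711). All 9 preimplantation embryo markers were present, with summed levels of 31297 to 34363 in Hdac1/2 cKD, 37593 to 42371 in Sin3a KD and 41307 to 47598 in NC. Of the markers of other cell types in the table, 6 neural ones summed to 282 to 348 in Hdac1/2 cKD, 122.7 to 229 in Sin3a KD and 109 to 176 in NC (Gfap and Rbfox3 stayed below 10), and 6 of the oviduct to 1386 to 1706, 894 to 986 and 801 to 837 (Foxj1 stayed below 10). The 4 blood markers summed to 122.7 to 145 in Hdac1/2 cKD, 43.5 to 65.4 in Sin3a KD and 52.9 to 86.6 in NC, with Lyz2 below 10, and the 10 cumulus and granulosa markers to 5799 to 5880, 5984 to 6602 and 5276 to 6986, with Cyp19a1 below 10. A single gene gave the largest part of each of these sums of other cell types. Nr5a2 was at 4735 to 6400 among the cumulus and granulosa markers, and Epcam at 659 to 1598 among the oviduct ones. The other cumulus and granulosa markers stayed at 414 or below, and the other oviduct ones at 125 or below. Cd68 was at 31.3 to 117 among the blood markers, and Nes at 83.8 to 211 among the neural ones. In pooled embryos these sums cannot tell transcripts of the embryo from those of other cells. Of the listed markers, the table held 10 of 14 for cumulus and granulosa cells, 6 of 7 for oviduct and 4 of 5 for blood. It holds no gene at 0 in every library, so listed markers that are missing from it have no value here. The part these levels have in the results was not tested.

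In Hdac1/2 cKD embryos 9 of the 79 genes rose and 5 fell against NC, and 65 were not called. The risers were Shox2, Hoxd11, Hoxc13, Nkx2-3, Sox11, Foxd1, Foxf1, Foxk1 and Foxm1, most of them patterning genes with low counts in NC, and the genes that fell were Pax6, Sox13, Foxc1, Foxn2 and Foxo1. In Sin3a KD embryos 4 genes rose against NC, Foxd1, Foxo6, Nkx6-2 and Sox12, and none was called lower (1 was lower at an unadjusted p below 0.05). Set directly against Sin3a KD embryos, Hdac1/2 cKD embryos had 4 genes higher, Shox2, Irx2, Foxk1 and Foxm1, and 9 lower: Sox12, Sox15, Sox21, Foxc1, Foxf2, Foxi3, Foxo1, Foxo6 and Nkx6-2. A gene was called at an adjusted p below 0.05 in limma on log2(value + 1), adjusted by the Benjamini-Hochberg method over the 13343 genes that reached 10 in 3 libraries or more. Both comparisons against NC use the same NC libraries. These counts stand close to the background of all tested genes. Of all tested genes 7.81% were called higher and 7.80% lower in Hdac1/2 cKD against NC, and 11.4% and 6.33% of the 79 were. In Sin3a KD against NC 3.60% of all tested genes were called higher and 4.36% lower, against 5.06% and 0 of the 79, and 7.96% in either direction. Between the knockdowns 8.49% of all tested genes were higher and 8.78% lower in Hdac1/2 cKD, against 5.06% and 11.4% of the 79. The median log2 fold change of the 79 was 0.42 in Hdac1/2 cKD against NC, where that of all tested genes was 0.03, and 0.19 in Sin3a KD against NC, where it was also 0.03 over all tested genes. Without NC replicate 3 the medians of the 79 were 0.28 in Hdac1/2 cKD and 0.11 in Sin3a KD against NC, with 0.01 over all tested genes in both. Between the knockdowns the medians were 0.12 for the 79 and 0.01 for all tested genes.

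The level threshold itself bears on these medians, because 22 of the 79 genes would fall below it if a single group were left out, 10 of them only if that group were Hdac1/2 cKD. For those 22 the values are a description. Their median log2 fold change was 1.18 in Hdac1/2 cKD against NC, with 1 called (Hoxc13). The other 57 genes had a median of 0.33, with 8 called higher and 5 lower. Foxd1 is among these 57 although it reached 10 in knockdown libraries alone. In Sin3a KD against NC these 57 had a median of 0.21 with 4 called higher, and between the knockdowns a median of -0.24 with 4 higher and 9 lower. Just inside the threshold were Msx2, Hoxc9 and Six6, whose deciding values were 10.8, 10.9 and 11.3, and just outside it Hoxb2, Lhx6 and Hoxb1, at 8.72, 8.68 and 8.07. The 63 family genes below the threshold were not tested. Of them 58, 40 and 39 had a value above 0 in the Hdac1/2 cKD libraries, 32, 35 and 27 in the Sin3a KD libraries and 39, 27 and 13 in the NC libraries. Their summed normalised counts reached 513, 156 and 194 in Hdac1/2 cKD and 111, 116 and 136 in Sin3a KD, against 134, 105 and 65.9 in NC, so that Hdac1/2 cKD replicate 1 lay far above the rest and NC replicate 3, the shallowest library, lowest.

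**Figure D1:**
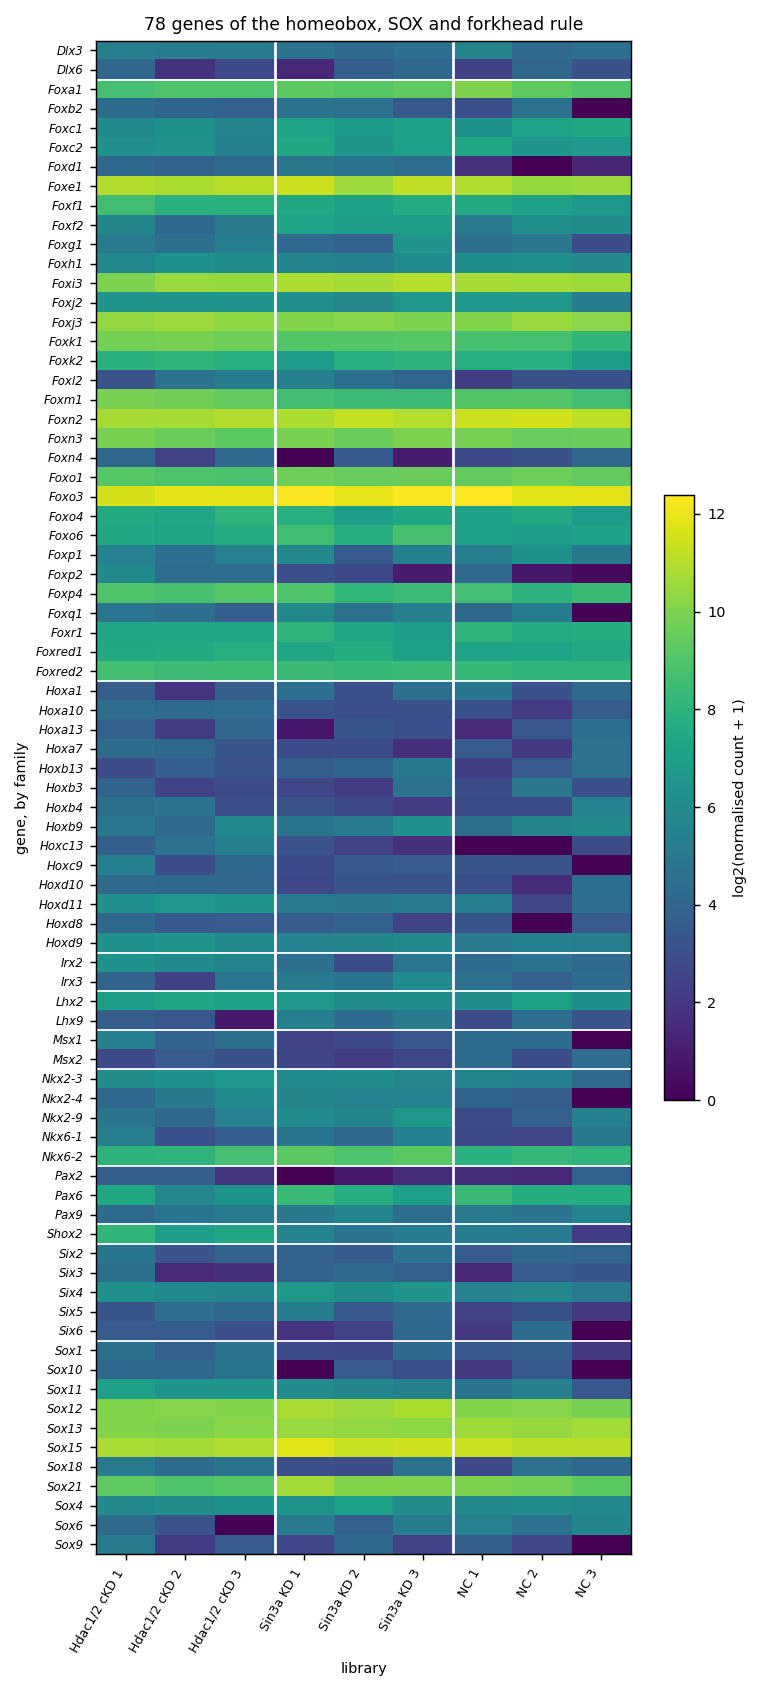
Level of 78 of the 79 genes (rows, grouped by family) in each of the 9 libraries (columns), as log2(normalised count + 1) on a colour scale. Foxo3, Sox15, Foxn2 and Foxe1 are bright in every library, while most Hox, Dlx and Msx genes are dark, and the Shox2 row is brightest in the 3 Hdac1/2 cKD libraries.

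The Hox genes, which give cells their position along the body axis, were scarce in all groups, and 2 of the 14 that passed the threshold were called, both higher in Hdac1/2 cKD embryos. Hoxd11, a posterior gene that patterns limb and kidney, lies on chromosome 2, 74679557 to 74687016, forward strand on GRCm38. Hoxd11 had normalised counts of 75.04, 102 and 88.7 in Hdac1/2 cKD and 34.4, 30.2 and 31.9 in Sin3a KD, against 38.5, 5.21 and 20.98 in NC. Every Hdac1/2 cKD library lay above every library of the other groups, which overlapped each other. Hoxd11 rose in Hdac1/2 cKD against NC (log2 fold change 2.34, SE 0.57, adjusted p = 0.0138). It was not called in Sin3a KD against NC (log2 fold change 0.92, adjusted p = 0.347) or between the knockdowns (log2 fold change 1.42, adjusted p = 0.107). The rise in Hdac1/2 cKD was lost without Hdac1/2 cKD replicate 2 (adjusted p 0.0571). Its log2 fold change was 2.93 without NC replicate 1 and 1.59 without NC replicate 2, the lowest library (adjusted p 0.00537 and 0.0198). In pooled embryos more cells with a transcript and more transcript per cell cannot be told apart.

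Hoxc13, the most posterior gene of its cluster and a regulator of hair and nail keratins, lies on chromosome 15, 102921103 to 102928814, forward strand. Hoxc13 had normalised counts of 12.5, 24.4 and 39.4 in Hdac1/2 cKD and 7.99, 4.73 and 2.34 in Sin3a KD, against 0, 0 and 6.22 in NC. It passed the level threshold through the Hdac1/2 cKD libraries alone, so its higher level there is part of how it was chosen. Its fitted log2 fold change against NC was 3.63 (SE 1.04, adjusted p = 0.0303) with 1 added to each value and 2.12 with 5 added, because 2 NC libraries are at 0. Without NC replicate 3, the single NC library above 0, a fitted value would depend on the number added alone and is not given. The call did not hold without any 1 of Hdac1/2 cKD replicate 1, Hdac1/2 cKD replicate 2, Hdac1/2 cKD replicate 3, NC replicate 1 and NC replicate 2 (adjusted p between 0.0532 and 0.141). Nor did it hold when lane was a factor, only the 2 groups compared were fitted or NC replicate 1 and Sin3a KD replicate 1, each alone on its lane, were left out (adjusted p 0.0828, 0.0542 and 0.108).

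Among the Hox genes without a call, Hoxd9, a neighbour of Hoxd11, was the highest, at 75.7, 90.5 and 57.5 in Hdac1/2 cKD and 44.3, 48.1 and 55.998 in Sin3a KD, against 34.2, 42.5 and 38.8 in NC. Both knockdown groups lay above all NC libraries, though the differences did not pass the threshold (log2 fold change 0.92, adjusted p = 0.0871 for Hdac1/2 cKD). Hoxb9, which patterns the thoracic region, was at 27.7, 18.3 and 54.4 in Hdac1/2 cKD and 27.6, 32.5 and 75.7 in Sin3a KD, against 23.1, 51.3 and 57.4 in NC, with all 3 groups overlapping. Hoxa10 was the only further Hox gene of the 14 whose Hdac1/2 cKD libraries all lay above the NC libraries. It reached 10 in all 3 Hdac1/2 cKD libraries and 1 NC library. Without the Hdac1/2 cKD libraries it would miss the level threshold, so its higher level there is part of how it was chosen.

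Summed over clusters, with the 24 Hox genes below the threshold included, the Hoxd and Hoxc sums were higher in Hdac1/2 cKD embryos and the Hoxa and Hoxb sums overlapped between groups. Without a pair of genes in each cluster, Hdac1/2 cKD and NC libraries overlapped, though the Hdac1/2 cKD means stayed above the NC means. These means were 46.8 and 20.8 for Hoxd without Hoxd9 and Hoxd11, and 16.7 and 3.69 for Hoxc without Hoxc9 and Hoxc13. The 9 Hoxd genes summed to 223, 231 and 176 in Hdac1/2 cKD and 96.7, 102 and 112 in Sin3a KD, against 97.6, 52.6 and 92.3 in NC. The 9 Hoxc genes summed to 82.04, 36.8 and 70.6 in Hdac1/2 cKD and 15.7, 26.01 and 23.6 in Sin3a KD, against 10.6, 11.1 and 12.4 in NC. In both clusters no Hdac1/2 cKD library overlapped another group. Without Hoxd9 and Hoxd11 the other 7 Hoxd genes summed to 71.9, 38.6 and 29.99 in Hdac1/2 cKD and 17.96, 23.7 and 23.96 in Sin3a KD, against 24.9, 4.91 and 32.5 in NC, where Hdac1/2 cKD and NC overlap. Without Hoxc9 and Hoxc13, which passed the level threshold through knockdown libraries, the other 7 Hoxc genes summed to 30.1, 5.88 and 14.2 in Hdac1/2 cKD and 1.88, 11.6 and 10.3 in Sin3a KD, against 1.69, 3.18 and 6.21 in NC, and all groups overlap. The 10 Hoxa genes averaged 68.5 ± 24.5 in Hdac1/2 cKD and 42.3 ± 4.34 in Sin3a KD, against 58.4 ± 20.6 in NC, and the 10 Hoxb genes 110.2 ± 25.9 in Hdac1/2 cKD and 97.04 ± 48.1 in Sin3a KD, against 98.7 ± 40.1 in NC (SD, n = 3 each). The 24 Hox genes below the threshold summed to 156, 42.2 and 67.1 in Hdac1/2 cKD. They summed to 22.2, 39.1 and 43.0 in Sin3a KD and to 36.0, 32.1 and 7.70 in NC. There Hdac1/2 cKD lay above NC and overlapped Sin3a KD. None of these sums was tested.

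**Figure D2:**
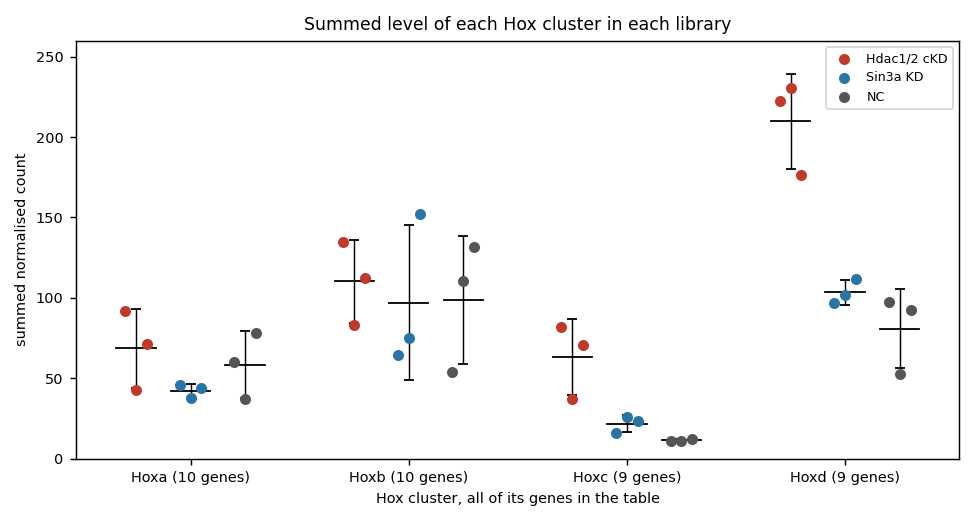
Summed normalised count of all genes of each Hox cluster in the table (vertical axis, linear) for Hdac1/2 cKD, Sin3a KD and NC libraries. Points are libraries, and bars give the mean and SD. In the Hoxd cluster the 3 Hdac1/2 cKD libraries lie between 176 and 231, above all others.

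Shox2, a homeobox gene of limb and sinus node development (chromosome 3, 66971727 to 66981771, reverse strand), rose in Hdac1/2 cKD embryos. It had normalised counts of 276, 124 and 153 in Hdac1/2 cKD and 46.4, 25.9 and 36.7 in Sin3a KD, against 36.5, 32.3 and 3.93 in NC. The Hdac1/2 cKD libraries lay above all others, and the Sin3a KD and NC libraries overlapped. Shox2 rose in Hdac1/2 cKD against NC (log2 fold change 3.25, SE 0.66, adjusted p = 0.00551), a call kept in all 18 alternatives, and against Sin3a KD (log2 fold change 2.27, SE 0.66, adjusted p = 0.0321). The value against NC depends on NC replicate 3, the lowest library, and was 2.31 without it (adjusted p = 0.00278). The difference between the knockdowns was lost without any 1 of Hdac1/2 cKD replicate 1, Hdac1/2 cKD replicate 2, Hdac1/2 cKD replicate 3, Sin3a KD replicate 1, Sin3a KD replicate 2 and Sin3a KD replicate 3 (adjusted p between 0.0554 and 0.128). It was also lost when lane was a factor, variances were moderated without trend and robust or NC replicate 1 and Sin3a KD replicate 1, each alone on its lane, were left out (adjusted p 0.239, 0.0978 and 0.0546). Of the Shox2 exon bases 4.62% are shared with Rsrc1 on the opposite strand, and Rsrc1 was not called in Hdac1/2 cKD against NC (log2 fold change 0.15, adjusted p = 0.682).

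Of the 5 Nkx genes, which pattern gut, spleen and neural tube, Nkx2-3 was called in Hdac1/2 cKD embryos and Nkx6-2 in Sin3a KD embryos. Nkx2-3, needed for spleen and gut vessels, lies on chromosome 19, 43612325 to 43615892, forward strand. Nkx2-3 was at 69.4, 81.8 and 97.8 in Hdac1/2 cKD and 61.2, 67.97 and 52.5 in Sin3a KD, against 46.9, 42.5 and 18.6 in NC. The 3 groups did not overlap, with Hdac1/2 cKD highest and NC lowest. It rose in Hdac1/2 cKD (log2 fold change 1.27, SE 0.39, adjusted p = 0.0422), but the call failed without any 1 of Hdac1/2 cKD replicate 1, Hdac1/2 cKD replicate 2, Hdac1/2 cKD replicate 3, Sin3a KD replicate 1, Sin3a KD replicate 2, Sin3a KD replicate 3 and NC replicate 3 (adjusted p between 0.0526 and 0.143). Other settings ended it as well, when lane was a factor, variances were moderated without trend and robust, no filter was set, only the 2 groups compared were fitted, replicate was a block or NC replicate 1 and Sin3a KD replicate 1, each alone on its lane, were left out (adjusted p between 0.0529 and 0.0802).

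Nkx6-2, a factor of ventral neural tube and oligodendrocytes, lies on chromosome 7, 139579376 to 139582797, reverse strand. Nkx6-2 had normalised counts of 261, 269.6 and 417 in Hdac1/2 cKD and 604, 467 and 602 in Sin3a KD, against 231, 306 and 269.6 in NC. The Sin3a KD libraries lay above all others. It rose in Sin3a KD against NC (log2 fold change 1.05, SE 0.21, adjusted p = 0.0106) and was lower in Hdac1/2 cKD than in Sin3a KD (log2 fold change -0.84, SE 0.21, adjusted p = 0.0144). The rise in Sin3a KD was lost without Sin3a KD replicate 1 or Sin3a KD replicate 3 (adjusted p 0.0565 and 0.0570) and when lane was a factor, variances were moderated without trend and robust or NC replicate 1 and Sin3a KD replicate 1, each alone on its lane, were left out (adjusted p 0.199, 0.0615 and 0.147). The difference between the knockdowns was lost without any 1 of Hdac1/2 cKD replicate 1, Hdac1/2 cKD replicate 2, Sin3a KD replicate 1 and Sin3a KD replicate 3 (adjusted p between 0.0589 and 0.0659) and when lane was a factor or NC replicate 1 and Sin3a KD replicate 1, each alone on its lane, were left out (adjusted p 0.247 and 0.0699). Inpp5a on the opposite strand shares 12.9% of the Nkx6-2 exon bases, and its level in Sin3a KD against NC was not called (log2 fold change -0.00, adjusted p = 1.00). Reads of such overlapping pairs cannot be told apart where the counting does not use strand.

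Nkx2-4 and Nkx2-9, relatives of Nkx2-3, were not called but lay above all NC libraries in Sin3a KD embryos. Nkx2-4 was at 16.9, 31.3 and 62.4 in Hdac1/2 cKD and 49.7, 44.3 and 44.2 in Sin3a KD, against 15.1, 11.7 and 0 in NC (adjusted p = 0.0805 for Hdac1/2 cKD and 0.0597 for Sin3a KD). Nkx2-9 was at 25.8, 16.6 and 44.1 in Hdac1/2 cKD and 63.97, 49.9 and 97.1 in Sin3a KD, against 6.38, 12.8 and 41.9 in NC (adjusted p = 0.0587 for Sin3a KD). In all, 4 of the 5 Nkx genes had Sin3a KD libraries that did not overlap the NC libraries, all on the higher side, as 13.9% of all tested genes did, and 1 of the 5 was called in that comparison.

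Pax6, a regulator of eye and forebrain, lies on chromosome 2, 105668900 to 105697364, forward strand. Pax6 had normalised counts of 168, 52.5 and 82.97 in Hdac1/2 cKD and 328, 210.4 and 128 in Sin3a KD, against 327, 202 and 206 in NC. All Hdac1/2 cKD libraries lay below the NC libraries, while the Sin3a KD libraries spanned much of the range. Pax6 fell in Hdac1/2 cKD against NC (log2 fold change -1.40, SE 0.42, adjusted p = 0.0405) and was not called between the knockdowns (log2 fold change -1.19, adjusted p = 0.0711). The fall was lost without any 1 of Hdac1/2 cKD replicate 2, Hdac1/2 cKD replicate 3, Sin3a KD replicate 2, NC replicate 1, NC replicate 2 and NC replicate 3 (adjusted p between 0.0564 and 0.148). It was lost too when lane was a factor, libraries were scaled to equal totals, variances were moderated without trend and robust or NC replicate 1 and Sin3a KD replicate 1, each alone on its lane, were left out (adjusted p between 0.0537 and 0.137). Pax9, of pharyngeal pouches and teeth, was at 19.4, 27.3 and 34.8 in Hdac1/2 cKD and 31.4, 46.5 and 20.9 in Sin3a KD, against 32.5, 25.6 and 47.9 in NC, and the kidney factor Pax2 at 12.7, 12.4 and 2.65 in Hdac1/2 cKD and 0, 0.827 and 2.05 in Sin3a KD, against 2.08, 1.68 and 13.6 in NC. Neither was called in any comparison.

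Irx2, of the Iroquois family, lies on chromosome 13, 72628820 to 72634198, forward strand. Irx2 was at 79.6, 60.6 and 46.8 in Hdac1/2 cKD and 23.1, 6.01 and 28.2 in Sin3a KD, against 19.4, 25.5 and 18.7 in NC. The Hdac1/2 cKD libraries lay above all others, and Sin3a KD replicate 2 was lowest. It was higher in Hdac1/2 cKD than in Sin3a KD (log2 fold change 1.86, SE 0.56, adjusted p = 0.0349), while the difference from NC did not pass (log2 fold change 1.49, adjusted p = 0.0895). The call was lost without any 1 of Hdac1/2 cKD replicate 1, Hdac1/2 cKD replicate 2, Hdac1/2 cKD replicate 3, Sin3a KD replicate 1 and Sin3a KD replicate 2 (adjusted p between 0.0528 and 0.130) and when lane was a factor, variances were moderated without trend and robust or NC replicate 1 and Sin3a KD replicate 1, each alone on its lane, were left out (adjusted p 0.226, 0.0558 and 0.0672), and without Sin3a KD replicate 2 the log2 fold change was 1.22. Its relative Irx3 was at 14.5, 4.43 and 27.8 in Hdac1/2 cKD and 34.3, 27.3 and 64.4 in Sin3a KD, against 23.5, 12.97 and 19.5 in NC, highest in Sin3a KD and called in none of the comparisons.

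No gene of the Six4, Lhx, Dlx or Msx families was called. Six4, a factor of muscle precursors, was at 74.5, 54.1 and 51.4 in Hdac1/2 cKD and 101, 70.1 and 92.9 in Sin3a KD, against 43.7, 51.7 and 34.8 in NC, and its Sin3a KD libraries lay above the NC libraries (adjusted p = 0.0809). Six3 and Six5 also lay above the NC libraries in Sin3a KD, but both passed the level threshold through the Sin3a KD libraries, so that this is part of how they were chosen. Lhx2, a forebrain and hair follicle factor, was at 118, 149 and 131 in Hdac1/2 cKD and 100.2, 68.9 and 71.5 in Sin3a KD, against 66.1, 133 and 71.2 in NC, and Lhx9, of the gonad, at 11.6, 9.22 and 0.822 in Hdac1/2 cKD and 40.4, 18.98 and 34.6 in Sin3a KD, against 6.11, 21.5 and 7.99 in NC. Dlx3, which is expressed in trophoblast and needed for the placenta, was at 38.3, 35.7 and 34.3 in Hdac1/2 cKD and 25.7, 17.9 and 22.2 in Sin3a KD, against 48.5, 18.02 and 21.8 in NC, and its relative Dlx6 at 16.1, 2.48 and 5.76 in Hdac1/2 cKD and 1.69, 12.5 and 16.6 in Sin3a KD, against 4.54, 16.3 and 7.39 in NC. The groups of both Lhx and both Dlx genes overlapped in the comparisons with NC. Msx1, of limb and craniofacial tissue, was at 41.6, 13.9 and 23.1 in Hdac1/2 cKD and 4.56, 5.63 and 9.28 in Sin3a KD, against 19.8, 20.1 and 0 in NC. Msx2 was at 5.82, 10.8 and 7.54 in Hdac1/2 cKD and 4.97, 3.53 and 5.46 in Sin3a KD, against 19.04, 6.93 and 20.3 in NC, with the Sin3a KD libraries all below NC, the single such gene of the 79. Msx2 would fall below the level threshold without its NC libraries, so this too is part of how it was chosen.

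Among the 11 SOX genes, Sox11 rose and Sox13 fell in Hdac1/2 cKD embryos, and Sox12 rose in Sin3a KD embryos. Sox11, which acts with Sox4 and Sox12 in neural and mesenchymal progenitors, lies on chromosome 12, 27334264 to 27342574, reverse strand. Sox11 had normalised counts of 134, 88.6 and 90.2 in Hdac1/2 cKD and 61.9, 51.1 and 42.3 in Sin3a KD, against 26.1, 41.1 and 9.33 in NC. The 3 groups did not overlap, with Sin3a KD in between. Sox11 rose in Hdac1/2 cKD against NC (log2 fold change 2.18, SE 0.48, adjusted p = 0.00783), a call kept in all 18 alternatives, and was not called in Sin3a KD (log2 fold change 1.20, adjusted p = 0.144). Sox12, of the same subgroup, lies on chromosome 2, 152393611 to 152398063, reverse strand. Sox12 showed another order: 1039, 1114 and 1103 in Hdac1/2 cKD and 1803, 1548 and 1875 in Sin3a KD, against 1083, 1119.7 and 911 in NC. The Sin3a KD libraries lay above all others and the other groups overlapped. It rose in Sin3a KD against NC (log2 fold change 0.75, SE 0.12, adjusted p = 0.00493) and was lower in Hdac1/2 cKD than in Sin3a KD (log2 fold change -0.68, SE 0.12, adjusted p = 0.00211). The first call was lost when lane was a factor, variances were moderated without trend and robust or NC replicate 1 and Sin3a KD replicate 1, each alone on its lane, were left out (adjusted p 0.0629, 0.0523 and 0.0723), and the second held in all 18 alternatives. Sox4 was at 60.5, 68.7 and 77.9 in Hdac1/2 cKD and 84.1, 132 and 66.9 in Sin3a KD, against 59.5, 69.7 and 54.4 in NC, and was not called.

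Sox13, of the SOX group that lacks an activation domain, lies on chromosome 1, 133382303 to 133424377, reverse strand. Sox13 was at 1107, 1015 and 1186 in Hdac1/2 cKD and 1444, 1347 and 1262 in Sin3a KD, against 1599.9, 1404 and 1625 in NC. All Hdac1/2 cKD libraries lay below the other groups. Sox13 fell in Hdac1/2 cKD against NC (log2 fold change -0.48, SE 0.12, adjusted p = 0.0126), which was lost without Hdac1/2 cKD replicate 2 (adjusted p 0.0655) and when lane was a factor or NC replicate 1 and Sin3a KD replicate 1, each alone on its lane, were left out (adjusted p 0.0531 and 0.0553). Its relative Sox6, a chondrocyte and muscle factor, was at 18.4, 8.26 and 0 in Hdac1/2 cKD and 33.1, 13.1 and 36.1 in Sin3a KD, against 43.5, 23.6 and 50.2 in NC. The Hdac1/2 cKD values of Sox6 lay below NC, with an adjusted p of 0.0597.

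Sox15 and Sox21, both present in the early embryo in all groups, differed between the knockdowns. Sox15, found in pluripotent cells and trophoblast, lies on chromosome 11, 69655314 to 69656727, forward strand. Sox15 was at 1825, 1689 and 1943 in Hdac1/2 cKD and 3519.5, 2575 and 2847 in Sin3a KD, against 2722, 2243 and 2212 in NC. Sox21, which in cleavage embryos restrains Cdx2, lies on chromosome 14, 118233232 to 118237030, reverse strand. Sox21 was at 645, 509.5 and 566 in Hdac1/2 cKD and 1649, 1087 and 1040.0 in Sin3a KD, against 1029, 858 and 609 in NC. For both genes all Hdac1/2 cKD libraries lay below all Sin3a KD libraries. They were lower in Hdac1/2 cKD than in Sin3a KD, Sox15 with log2 fold change -0.70, SE 0.13, adjusted p = 0.00234 and Sox21 with log2 fold change -1.11, SE 0.21, adjusted p = 0.00304, in the analysis as reported and in all 18 alternatives. Against NC neither was called in either knockdown. Sox15 had a log2 fold change of -0.39 in Hdac1/2 cKD (adjusted p = 0.0566) and 0.31 in Sin3a KD (adjusted p = 0.158). Sox21 had -0.51 (adjusted p = 0.121) and 0.60 (adjusted p = 0.0981), although its Sin3a KD libraries all lay above the NC libraries. Of the Sox15 exon bases 3.60% are shared with Mpdu1 on the opposite strand.

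The 31 forkhead-named genes held 4 of the risers and 3 of the fallers in Hdac1/2 cKD embryos. Foxk1, which represses starvation genes and recruits the Sin3 complex, lies on chromosome 5, 142401497 to 142462011, forward strand. Foxk1 had normalised counts of 889.8, 931 and 801 in Hdac1/2 cKD and 538, 545 and 573 in Sin3a KD, against 446, 428 and 279.8 in NC. The groups did not overlap, with Sin3a KD between the other groups. Foxk1 rose in Hdac1/2 cKD against NC (log2 fold change 1.21, SE 0.18, adjusted p = 0.000626) in every alternative and was higher than in Sin3a KD (log2 fold change 0.66, SE 0.18, adjusted p = 0.0199). In Sin3a KD against NC it was not called (log2 fold change 0.55, adjusted p = 0.0728). The difference between the knockdowns was lost without any 1 of Hdac1/2 cKD replicate 1, Hdac1/2 cKD replicate 2, Sin3a KD replicate 1 and Sin3a KD replicate 2 (adjusted p between 0.0553 and 0.0805) and when lane was a factor, variances were moderated without trend and robust or NC replicate 1 and Sin3a KD replicate 1, each alone on its lane, were left out (adjusted p 0.277, 0.0620 and 0.0637).

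Foxm1, a driver of mitotic genes, lies on chromosome 6, 128362967 to 128376146, forward strand. Foxm1 was at 949.6, 835 and 692 in Hdac1/2 cKD and 399.6, 365 and 358 in Sin3a KD, against 518, 526 and 381 in NC. The Hdac1/2 cKD libraries lay above all others, and NC replicate 3 overlapped the Sin3a KD libraries. Foxm1 rose in Hdac1/2 cKD against NC (log2 fold change 0.80, SE 0.17, adjusted p = 0.00703) and was higher there than in Sin3a KD (log2 fold change 1.13, SE 0.17, adjusted p = 0.000670), both in all 18 alternatives. Its value in Sin3a KD against NC was -0.33 (adjusted p = 0.265).

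Foxd1, a gene of kidney stroma and retina (chromosome 13, 98354242 to 98359305, forward strand), was close to absent in NC and present in both knockdowns. Normalised counts came to 16.9, 13.9 and 18.2 in Hdac1/2 cKD and 29.2, 25.5 and 21.1 in Sin3a KD, against 2.38, 0 and 1.55 in NC. No library of 1 group overlapped another, with Sin3a KD highest. Foxd1 reached 10 in 0 NC libraries and in all 3 libraries of each knockdown. Its higher level in both knockdowns is therefore part of how it was chosen, and its calls are a description. Foxd1 rose in Hdac1/2 cKD (log2 fold change 3.07, SE 0.75, adjusted p = 0.0139) and in Sin3a KD (log2 fold change 3.67, SE 0.75, adjusted p = 0.0111) against the same NC libraries, and was the single gene of the 79 called in both comparisons. With values this low in NC, the fitted log2 fold change follows the number added: with 5 added it was 1.77 and 2.27. The call in Hdac1/2 cKD was lost without Hdac1/2 cKD replicate 1 or Hdac1/2 cKD replicate 3 (adjusted p 0.05003 and 0.0595) and when only the 2 groups compared were fitted (adjusted p 0.0756). The call in Sin3a KD was lost without Sin3a KD replicate 1 (adjusted p 0.0675) and when lane was a factor or NC replicate 1 and Sin3a KD replicate 1, each alone on its lane, were left out (adjusted p 0.128 and 0.0979).

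Foxf1 and Foxf2, both factors of gut mesenchyme, were called in different comparisons. Foxf1 lies on chromosome 8, 121084386 to 121088144, forward strand. It was at 381, 233 and 235 in Hdac1/2 cKD and 165, 129 and 196 in Sin3a KD, against 188, 126 and 96.3 in NC. It rose in Hdac1/2 cKD against NC (log2 fold change 1.06, SE 0.29, adjusted p = 0.0255), with Hdac1/2 cKD replicate 1 the highest library and no overlap with the other groups. That rise was lost without Hdac1/2 cKD replicate 1, NC replicate 2 or NC replicate 3 (adjusted p 0.120, 0.0501 and 0.0775) and when variances were moderated without trend and robust (adjusted p 0.0707). Foxf2 lies on chromosome 13, 31625816 to 31631403, forward strand. It was at 50.7, 17.4 and 32.3 in Hdac1/2 cKD and 146, 122 and 124 in Sin3a KD, against 34.96, 74.2 and 66.8 in NC. The Sin3a KD libraries of Foxf2 lay above all others, and it was lower in Hdac1/2 cKD than in Sin3a KD (log2 fold change -2.05, SE 0.42, adjusted p = 0.00468). That call was lost when lane was a factor (adjusted p 0.0683), and neither knockdown differed from NC past the threshold (adjusted p = 0.202 for Hdac1/2 cKD and 0.0944 for Sin3a KD).

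Insulin signalling through AKT keeps several FOXO factors out of the nucleus. Of the 4 FOXO genes here, Foxo1 and Foxo6 were called in at least 1 comparison. Foxo1 lies on chromosome 3, 52268336 to 52353221, forward strand. It was at 550.2, 481 and 458 in Hdac1/2 cKD and 809.6, 737 and 746 in Sin3a KD, against 676, 800.0 and 690.1 in NC. All Hdac1/2 cKD libraries lay below the other groups, which overlapped. Foxo1 fell in Hdac1/2 cKD against NC (log2 fold change -0.54, SE 0.14, adjusted p = 0.0171), a call lost without Hdac1/2 cKD replicate 2 or Hdac1/2 cKD replicate 3 (adjusted p 0.0664 and 0.0724) and when libraries were scaled to equal totals (adjusted p 0.0564), and was lower there than in Sin3a KD (log2 fold change -0.62, SE 0.14, adjusted p = 0.00690) in all 18 alternatives. Foxo6 lies on chromosome 4, 120267079 to 120287349, reverse strand. It was at 171, 150.5 and 195 in Hdac1/2 cKD and 380.1, 209.7 and 424 in Sin3a KD, against 133, 117 and 134 in NC. The 3 groups did not overlap, with NC lowest. It rose in Sin3a KD against NC (log2 fold change 1.33, SE 0.26, adjusted p = 0.0102), with Sin3a KD replicate 2 the lowest of the 3, and was lower in Hdac1/2 cKD than in Sin3a KD (log2 fold change -0.91, SE 0.26, adjusted p = 0.0290). The rise was lost without Sin3a KD replicate 1 or Sin3a KD replicate 3 (adjusted p 0.0570 and 0.0591) and when lane was a factor, variances were moderated without trend and robust or NC replicate 1 and Sin3a KD replicate 1, each alone on its lane, were left out (adjusted p 0.153, 0.0551 and 0.122). The difference between the knockdowns was lost without any 1 of Hdac1/2 cKD replicate 1, Hdac1/2 cKD replicate 2, Sin3a KD replicate 1 and Sin3a KD replicate 3 (adjusted p between 0.0764 and 0.131) and when lane was a factor, variances were moderated without trend and robust or NC replicate 1 and Sin3a KD replicate 1, each alone on its lane, were left out (adjusted p 0.354, 0.0638 and 0.140). Foxo3, which keeps oocyte follicles dormant, had the highest values of the 79 genes: 3127, 3729 and 3785 in Hdac1/2 cKD and 5095, 3926 and 5162 in Sin3a KD, against 5381, 3517 and 3717 in NC, with no call. The NC libraries overlapped both knockdown groups, and all Hdac1/2 cKD libraries lay below all Sin3a KD libraries.

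Foxc1, Foxn2 and Foxi3 were lower in Hdac1/2 cKD embryos in at least 1 comparison. Foxc1, of eye and vessel mesenchyme, lies on chromosome 13, 31806633 to 31812476, forward strand. Foxc1 was at 57.8, 82.6 and 47.6 in Hdac1/2 cKD and 138, 108 and 137 in Sin3a KD, against 80.9, 146 and 171 in NC. NC replicate 1 lay within the Hdac1/2 cKD range, and the fall against NC was at the threshold (log2 fold change -1.04, SE 0.33, adjusted p = 0.0497). It was lost without any 1 of Hdac1/2 cKD replicate 1, Hdac1/2 cKD replicate 3, Sin3a KD replicate 1, Sin3a KD replicate 2, Sin3a KD replicate 3, NC replicate 2 and NC replicate 3 (adjusted p between 0.0624 and 0.165), and when libraries were scaled to equal totals, variances were moderated without trend and robust, no filter was set, only the 2 groups compared were fitted or replicate was a block (adjusted p between 0.0620 and 0.0943). Against Sin3a KD Foxc1 was lower (log2 fold change -1.04, SE 0.33, adjusted p = 0.0450), which was lost without any 1 of Hdac1/2 cKD replicate 1, Hdac1/2 cKD replicate 3, Sin3a KD replicate 1, Sin3a KD replicate 2 and Sin3a KD replicate 3 (adjusted p between 0.0655 and 0.149), and when lane was a factor, libraries were scaled to equal totals, variances were moderated without trend and robust, no filter was set, replicate was a block or NC replicate 1 and Sin3a KD replicate 1, each alone on its lane, were left out (adjusted p between 0.0531 and 0.144). Foxn2 lies on chromosome 17, 88440711 to 88490533, forward strand. It was at 1703, 1696 and 1989 in Hdac1/2 cKD and 1882, 2424 and 2048 in Sin3a KD, against 2713, 3029 and 2295 in NC. Hdac1/2 cKD libraries of Foxn2 all lay below NC, and it fell (log2 fold change -0.57, SE 0.13, adjusted p = 0.00994), a call lost when variances were moderated without trend and robust (adjusted p 0.0621). Foxi3, of ear and tooth placodes, lies on chromosome 6, 70956531 to 70961066, forward strand. Foxi3 was at 972, 1443 and 1366 in Hdac1/2 cKD and 1891, 1708 and 2096 in Sin3a KD, against 1719.5, 1623 and 1582 in NC. The Hdac1/2 cKD libraries lay below all others. It was lower in Hdac1/2 cKD than in Sin3a KD (log2 fold change -0.61, SE 0.14, adjusted p = 0.0109), which was lost without Sin3a KD replicate 3 (adjusted p 0.0524) and when lane was a factor, variances were moderated without trend and robust or NC replicate 1 and Sin3a KD replicate 1, each alone on its lane, were left out (adjusted p 0.161, 0.0618 and 0.0502). The thyroid factor Foxe1, the other of the most abundant forkhead genes without a call, was at 1980.3, 1871 and 2110.2 in Hdac1/2 cKD and 2756, 1526 and 2370.1 in Sin3a KD, against 1938, 1388 and 1456 in NC.

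**Figure D3:**
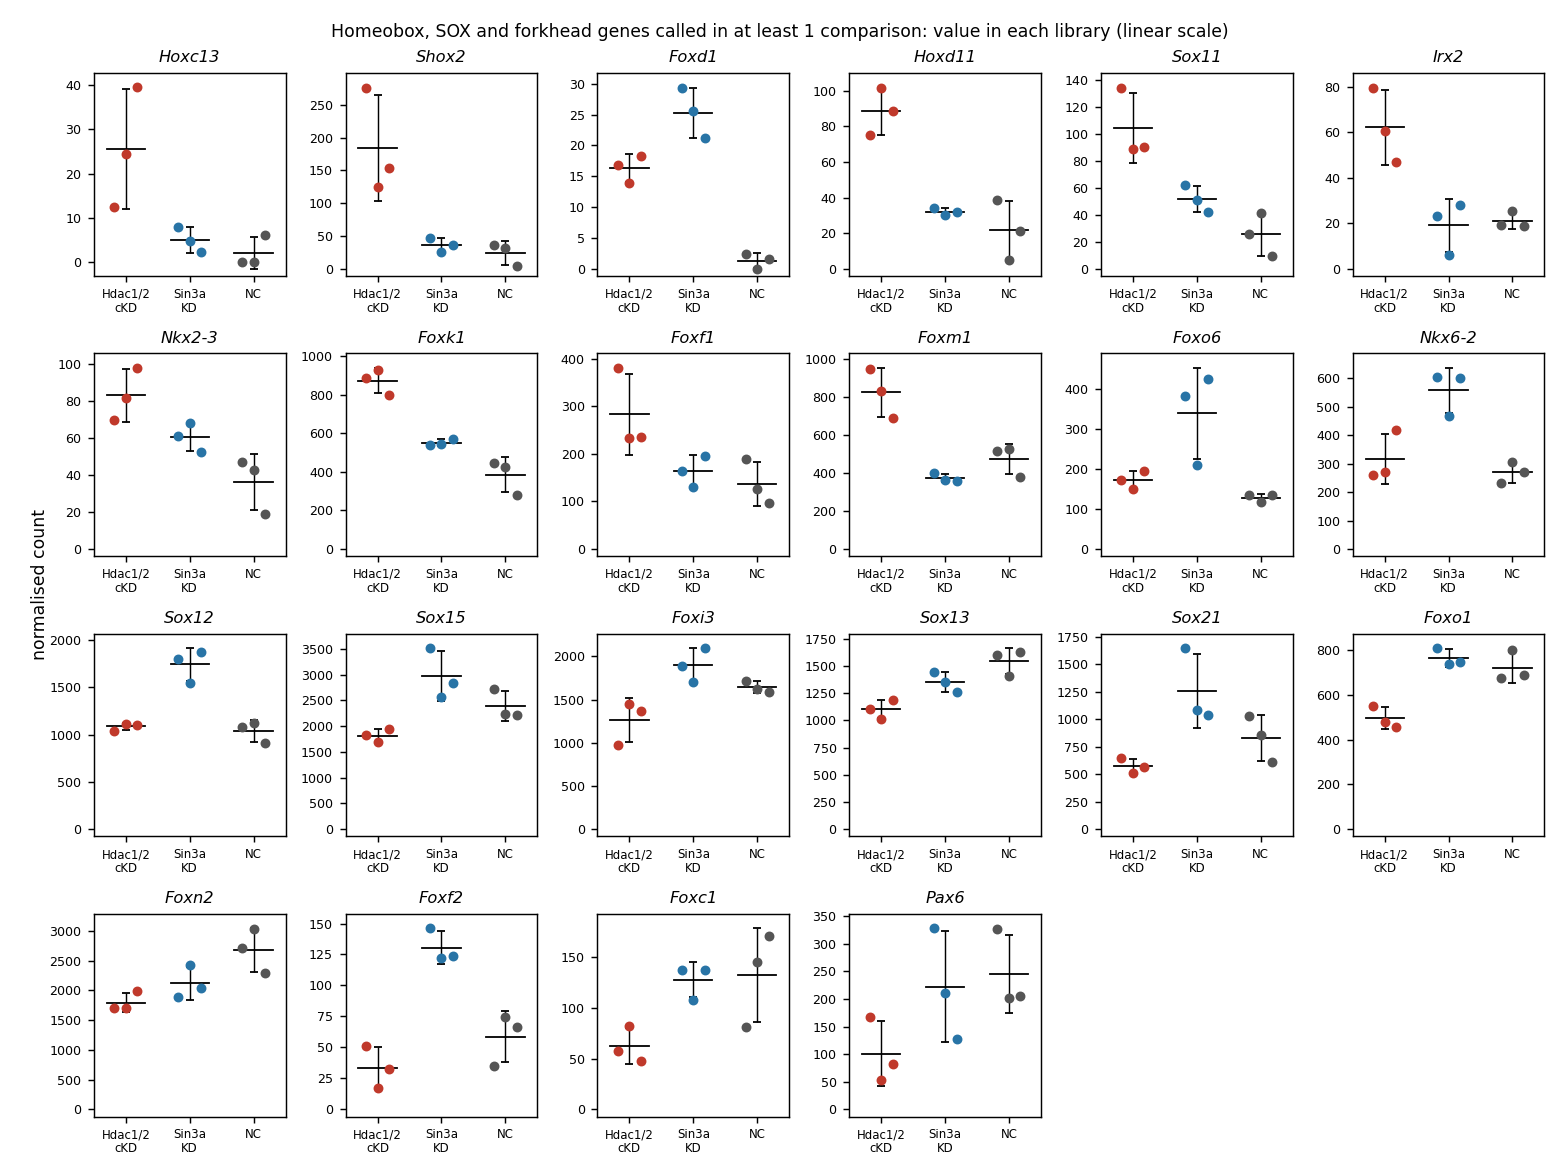
Normalised count in every library (linear axes) of the 22 genes called in at least 1 comparison, ordered by their log2 fold change in Hdac1/2 cKD against NC. Points are libraries, and bars give the mean and SD of 3. Hoxc13, Shox2, Hoxd11, Sox11, Irx2, Nkx2-3, Foxk1, Foxf1 and Foxm1 have their Hdac1/2 cKD points above every other library, and Foxd1, Foxo6, Nkx6-2, Sox12, Sox21 and Foxf2 their Sin3a KD points.

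The remaining 38 genes were called in no comparison, with values of 0 to 1546 and means of 8.46 to 1241. Of the 79 genes, 22 had all Hdac1/2 cKD libraries above all NC libraries and 10 all below, when 17.1% and 16.0% of all tested genes did, but 7 of the 22 higher genes are among those that would miss the level threshold without a single group, and the other 57 genes gave 15 above and 10 below. In Sin3a KD against NC these counts were 17 and 1 (14 and 0 of the 57), beside 13.9% and 13.3% of all tested genes. Between the knockdowns 22 genes had all Hdac1/2 cKD libraries above all Sin3a KD libraries and 17 all below (13 and 16 of the 57), beside 20.4% and 19.3%. In the fit without NC replicate 3, the number of the 79 called in Hdac1/2 cKD against NC was 7 higher and 5 lower, and in Sin3a KD against NC 5 higher. With sequencing lane as a factor none of the 4 calls in Sin3a KD against NC held. Within lanes that hold both groups, the log2 difference of Hdac1/2 cKD from NC was 2.48 on lane 2 and 4.96 on lane 3, where NC replicate 3 was run, for Shox2, 1.39 and 3.14 for Sox11, 1.09 and 1.51 for Foxk1, and 0.76 and 0.86 for Foxm1. That of Sin3a KD from NC on lane 3 was 3.25 for Foxd1 and 0.90 for Sox12.

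**Figure D4:**
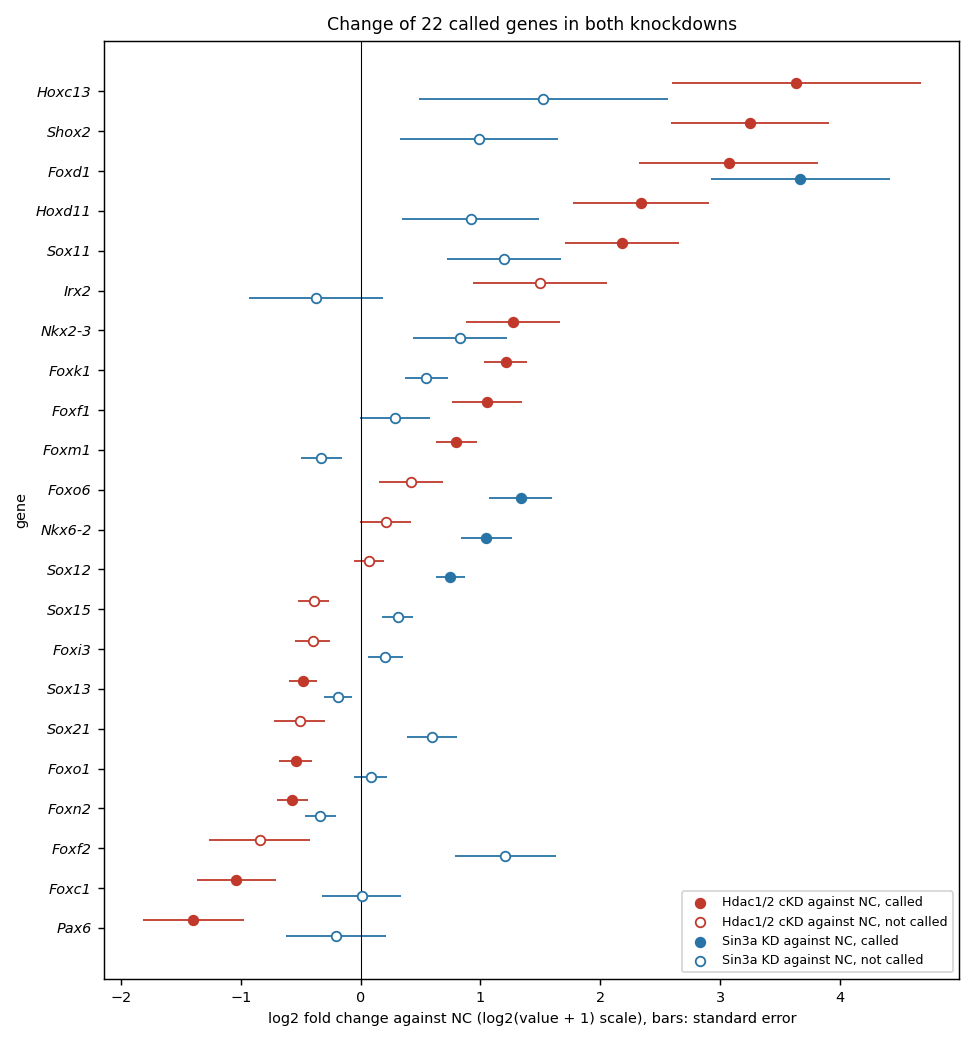
Log2 fold change (horizontal axis, log2(value + 1) scale, bars give the SE) of the 22 called genes in Hdac1/2 cKD and in Sin3a KD, each against the same 3 NC libraries. Filled points passed an adjusted p of 0.05. Foxd1 alone is filled in both, and Sox12, Nkx6-2 and Foxo6 are filled for Sin3a KD with Hdac1/2 cKD values of 0.07, 0.21 and 0.42.

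Genes that work with these factors were followed through 5 lists. Among 17 tested homeodomain cofactors, 3 rose and 1 fell in Hdac1/2 cKD against NC, 2 rose and 1 fell in Sin3a KD, and between the knockdowns 2 were higher and 2 lower in Hdac1/2 cKD. Their median log2 fold changes were 0.19, 0.13 and 0.27, beside 0.03, 0.03 and 0.01 over all tested genes. In the same order the shares called higher and lower were 17.6% and 5.88%, 11.8% and 5.88%, and 11.8% and 11.8%. Over all tested genes they were 7.81% and 7.80%, 3.60% and 4.36%, and 8.49% and 8.78%. Tgif1, a homeodomain corepressor, fell to 80.8 ± 9.83 in Hdac1/2 cKD, with 302 ± 1.09 in Sin3a KD and 199 ± 50.9 in NC (SD, n = 3 each, log2 fold change -1.27, SE 0.23, adjusted p = 0.00282). Its difference from Sin3a KD was -1.90 on the log2 scale (adjusted p = 0.000165). Ssbp4, of a family that binds the LIM cofactor Ldb1, fell in Sin3a KD to 60.99 ± 27.4, with 342 ± 78.3 in Hdac1/2 cKD and 197 ± 38.7 in NC (log2 fold change -1.74, SE 0.31, adjusted p = 0.00640), a call lost when lane was a factor, variances were moderated without trend and robust or NC replicate 1 and Sin3a KD replicate 1, each alone on its lane, were left out (adjusted p 0.136, 0.0532 and 0.108).

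Several homeobox and forkhead proteins recruit Groucho corepressors. Of the 5 tested, 2 rose and 2 fell in Hdac1/2 cKD against NC, and 1 rose in Sin3a KD. Between the knockdowns 1 was higher and 2 were lower in Hdac1/2 cKD. Their median log2 fold changes were 0.40, 0.34 and 0.02, beside 0.03, 0.03 and 0.01 over all tested genes. Among all tested genes the shares called higher and lower were 7.81% and 7.80%, 3.60% and 4.36%, and 8.49% and 8.78%. Aes, the short member that lacks the repeat domain of the others, rose to 641 ± 119 in Hdac1/2 cKD, with 153 ± 15.6 in Sin3a KD and 212 ± 66.9 in NC (SD, n = 3 each, log2 fold change 1.62, SE 0.24, adjusted p = 0.000758). Tle4 was lower in Hdac1/2 cKD than in Sin3a KD, at 2063 ± 194 and 4111 ± 212, with 3139 ± 424 in NC (log2 fold change -0.997, SE 0.12, adjusted p = 0.000118). Tle1 rose in Sin3a KD to 518 ± 87.6, with 524 ± 90.5 in Hdac1/2 cKD and 289.7 ± 48.3 in NC (log2 fold change 0.84, SE 0.20, adjusted p = 0.0203), which was lost without Sin3a KD replicate 1, Sin3a KD replicate 3 or NC replicate 3 (adjusted p 0.103, 0.0664 and 0.0596) and when lane was a factor, variances were moderated without trend and robust or NC replicate 1 and Sin3a KD replicate 1, each alone on its lane, were left out (adjusted p 0.141, 0.0802 and 0.125).

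Among 28 tested FOXO regulators and target genes, 3 rose and 3 fell in Hdac1/2 cKD against NC, and 2 rose in Sin3a KD. Between the knockdowns 1 was higher and 6 were lower in Hdac1/2 cKD (medians 0.05, 0.09 and 0.15). In that order the shares higher and lower were 10.7% and 10.7%, 7.14% and 0, and 3.57% and 21.4%. Over all tested genes they were 7.81% and 7.80%, 3.60% and 4.36%, and 8.49% and 8.78%. Catalase (Cat), a FOXO target that breaks down hydrogen peroxide, fell to 169.8 ± 16.5 in Hdac1/2 cKD, with 686 ± 47.8 in Sin3a KD and 638 ± 77.1 in NC (log2 fold change -1.90, SE 0.16, adjusted p = 1.01e-05), and its difference from Sin3a KD was -2.01 (adjusted p = 5.64e-06). Bcl2l11, a FOXO target that promotes cell death, rose in Sin3a KD to 663 ± 93.7, with 398 ± 36.995 in Hdac1/2 cKD and 299 ± 64.6 in NC (log2 fold change 1.16, SE 0.19, adjusted p = 0.00502), which was lost when lane was a factor, variances were moderated without trend and robust or NC replicate 1 and Sin3a KD replicate 1, each alone on its lane, were left out (adjusted p 0.0960, 0.0523 and 0.0815). Of 34 tested homeobox genes outside the name rule, 4 rose and 3 fell in Hdac1/2 cKD, and 4 rose and 3 fell in Sin3a KD. Between the knockdowns 2 were higher and 5 lower in Hdac1/2 cKD (medians 0.32, 0.36 and 0.17). Their shares were 11.8% and 8.82%, 11.8% and 8.82%, and 5.88% and 14.7%, beside those of all tested genes just given. Cdx2, the trophectoderm factor, fell to 178 ± 25.3 in Hdac1/2 cKD, with 839 ± 174 in Sin3a KD and 1186 ± 256 in NC (log2 fold change -2.72, SE 0.19, adjusted p = 2.90e-06), and its difference from Sin3a KD was -2.22 (adjusted p = 1.32e-05). Satb1, a chromatin organiser with a homeodomain, fell in Sin3a KD to 808 ± 196, with 1667 ± 106 in Hdac1/2 cKD and 2105 ± 434 in NC (log2 fold change -1.39, SE 0.17, adjusted p = 0.00181), which was lost when variances were moderated without trend and robust (adjusted p 0.0523).

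Among 22 tested genes of the Wnt, retinoic acid and hedgehog pathways, signals that switch on Hox and other patterning genes after implantation, 5 rose and 1 fell in Hdac1/2 cKD against NC, 4 rose in Sin3a KD, and 4 were higher and 1 lower between the knockdowns. Their medians were 0.48, 0.35 and 0.24. In the same order the shares called higher and lower were 22.7% and 4.55%, 18.2% and 0, and 18.2% and 4.55%. Over all tested genes they were 7.81% and 7.80%, 3.60% and 4.36%, and 8.49% and 8.78%. Rara, a retinoic acid receptor, rose to 182 ± 2.49 in Hdac1/2 cKD, with 57.9 ± 18.03 in Sin3a KD and 36.5 ± 8.49 in NC (SD, n = 3 each, log2 fold change 2.32, SE 0.33, adjusted p = 0.000502). Its difference from Sin3a KD was 1.68 (adjusted p = 0.00325), lost when lane was a factor (adjusted p 0.115). Ptch1, the hedgehog receptor, rose in Sin3a KD to 552 ± 83.1, with 355 ± 49.999 in Hdac1/2 cKD and 246 ± 90.7 in NC (log2 fold change 1.21, SE 0.24, adjusted p = 0.00907), which was lost when variances were moderated without trend and robust or NC replicate 1 and Sin3a KD replicate 1, each alone on its lane, were left out (adjusted p 0.0648 and 0.0823).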

How the data were processed

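Polyadenylated RNA was sequenced from 9 pools of 60 embryos with a kit that the labels do not describe as keeping strand. The deposited signal values are gene counts that the authors made with Salmon on build GRCm38 and normalised with DESeq2, per the submitters' processing notes. Versions, annotation and the use of strand in the counting are not stated there or in the labels. Between 59.7% and 72.8% of the low values in a library lay within 0.1 of a whole step, so whole reads were not recovered, and depth was estimated from the step. A row without a gene name, 0.00543% to 0.00896% of each total, was left out. The added RFP and GFP RNA was not used, and total RNA per embryo is therefore unknown.

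The 13343 of 20087 genes that reached 10 in 3 or more of the 9 libraries were tested. The scale was log2(value + 1). On it the added 1 makes changes of scarce genes smaller, while a single library near 0 can make them larger. All 9 libraries were fitted in limma 3.58.1 under R 4.3.3, with 1 mean per group, variances moderated with trend and robust, and 6 residual degrees of freedom. In each of 3 comparisons Benjamini-Hochberg adjustment ran over all tested genes, and the fit was tested on simulated data. The members and the 5 partner lists were chosen with earlier results of these data known. Values in every library are given for the 22 genes called in any comparison and the 2 uncalled genes of each family with the highest mean (18 in all), 38 are given by range, and 1 is not reported here. From each list the called gene with the lowest adjusted p in each comparison is named, and the promoters to print were chosen after values were seen. Gene positions come from GENCODE vM21, which matched all 79 genes, and promoters from RefSeq on GRCm38.p6. Deviations from the group means correlated at -0.019 to 0.058 for libraries of the same replicate number and -0.043 to 0.033 for other numbers. These ranges overlap, and with 3 libraries per group they cannot settle whether replicate numbers pair the libraries. Lanes, read from the library descriptions, were 2, 2 and 3 for Hdac1/2 cKD, 4, 3 and 3 for Sin3a KD and 5, 2 and 3 for NC. In all, 18 alternatives were tried, 9 of which leave out 1 library.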

Additional observations from a re-analysis of the deposited data

How the results depend on the processing

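Of the 31 calls made on the 79 genes over the 3 comparisons, 9 held in every alternative and 12 in all 9 fits without 1 library, and none changed sign in any alternative. Those that held throughout were Foxk1, Foxm1, Shox2 and Sox11 in Hdac1/2 cKD against NC, and Foxm1, Foxo1, Sox12, Sox15 and Sox21 between the knockdowns. With lane as a factor, Hdac1/2 cKD against NC gave 3 lower in place of 5, Sin3a KD against NC 0 higher in place of 4, and Hdac1/2 cKD against Sin3a KD 2 higher in place of 4 and 4 lower in place of 9. Sin3a KD replicate 1 and NC replicate 1 each had a lane of their own, so that fit compares the same libraries as one without both. Leaving both out, chosen after seeing the data, gave 3 lower, 0 higher, 1 higher and 5 lower in the same order. With variances moderated without trend and robust, 2 fell in Hdac1/2 cKD, 1 rose in Sin3a KD and 1 was higher between the knockdowns. Fitting only the 2 groups compared gave 8 higher between the knockdowns. With libraries scaled to equal totals, 2 fell in Hdac1/2 cKD against NC. That scaling moved the median of all genes by over 0.1, to 0.15 in Hdac1/2 cKD against NC and 0.12 in Sin3a KD against NC, and the share of all calls that were higher to 67.2% and 63.5%, beside 50.02% and 45.2% without it. Without 1 library the counts were 5 to 10 higher and 2 to 5 lower in Hdac1/2 cKD against NC, 1 to 7 higher in Sin3a KD against NC, and 1 to 5 higher and 6 to 10 lower between the knockdowns. With the replicate block they were 10 higher and 6 lower, 6 and 0, and 4 and 9. Pairing of the libraries by replicate number was not established, so these counts say nothing on effect size. The causes of these changes were not tested. Over the alternatives the partner lists held, in Hdac1/2 cKD against NC, 0 to 4 higher and 1 to 2 lower homeodomain cofactors, 1 to 2 and 1 to 2 Groucho genes, 0 to 6 and 3 to 4 FOXO genes, 1 to 4 and 2 to 4 other homeobox genes, and 3 to 7 and 0 to 1 signalling genes. In Sin3a KD against NC each list went down to 0 higher in at least 1 alternative. A floor on the mean of 50 leaves 37 of the 79 genes tested. Depth limits the 42 genes with a mean below 50, where NC replicate 3 in particular holds few reads.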
